A study of Mus musculus with 2 samples.

Results

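Mature B cells of the mouse plantaris muscle were described from 107 cell barcodes, 73 in the tenotomy library and 34 in the sham library, out of 18975 cells kept in both. They were selected on measured counts of unique molecular identifiers (UMIs, each standing for 1 captured RNA molecule). A kept barcode had at least 500 UMIs, at least 300 genes and at most 10% mitochondrial UMIs. A member then needed at least 3 UMIs of Cd79a and Cd79b together and at least 2 UMIs of Ms4a1, Ighd and Fcmr together. It could have fewer than 2 UMIs of the precursor genes Vpreb1, Vpreb3, Igll1 and Rag1, and fewer than 3 UMIs of the macrophage genes C1qa, C1qb and Csf1r.

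The tenotomy library came from plantaris muscles of male C57BL/6 mice, 12 weeks old, taken 4 days after their tendon-cutting operation. The sham library came from the plantaris muscles of the other leg of the same 5 mice, also taken at 4 days and labelled a sham control; the labels do not describe what the sham consisted of. Each library was 1 pool of 5 muscles, digested with collagenase and sorted for living cells by Calcein AM uptake and exclusion of propidium iodide, so both share the digestion and the sort. The labels name no genetic change and say nothing on perfusion, so B cells in blood left in the muscle and B cells in the tissue cannot be told apart.

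B cells carry an immunoglobulin on their surface as antigen receptor, and the products of Cd79a and Cd79b pass its signal into the cell. While they develop in the bone marrow they rearrange their immunoglobulin genes with the Rag enzymes and carry a surrogate light chain made from the Vpreb and Igll1 genes. After that they leave with IgM and, when mature, IgD on their surface, circulate between blood and lymphoid organs, and gain MHC class II for presenting antigen to T cells. An activated mature cell can switch its heavy chain to IgG, IgA or IgE and can become an antibody-secreting plasma cell, marked by Jchain. Resting skeletal muscle is known to hold few of them.

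The promoter of Cd79a is shown because this gene defines the cells, and because Ebf1, a transcription factor that sets the B cell programme and is known to bind this promoter, was read in most members. The 250 bases before its RefSeq start are given 5′ to 3′ on the plus strand at chr7:24897247-24897496 on GRCm38.p6. GENCODE vM21 starts the gene at 24897381, inside this window, so the distance to the start depends on the annotation. Capitals mark CAAGGGA, a word like one arm of the Ebf1 motif, searched on both strands.
Cd79a: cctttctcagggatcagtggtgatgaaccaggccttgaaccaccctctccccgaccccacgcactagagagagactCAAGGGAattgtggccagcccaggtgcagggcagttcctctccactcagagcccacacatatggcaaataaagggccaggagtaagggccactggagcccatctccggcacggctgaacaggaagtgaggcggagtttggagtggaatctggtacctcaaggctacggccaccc
The word begins 174 bases before the RefSeq start, and 4.21% of all 32851 promoter windows of the same length hold it on either strand. A match to these letters describes the sequence and does not show a bound site. Ebf1 itself had a UMI in 66 of 73 tenotomy members and 32 of 34 sham members. Its level was 945 and 1021 CPM (UMIs of the gene per 1000000 UMIs of the summed cells) in tenotomy and sham members, a fold of 0.925 (95% interval 0.754 to 1.14). Ebf1 is also made by endothelial cells, of which 44.5% in tenotomy and 55.3% in sham had a UMI.

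The tenotomy library held 94556283 UMIs in 11950 barcodes and the sham library 47781353 UMIs in 8463, and 11237 and 7738 were kept. Of the kept barcodes, 29 had the same letters in both libraries, and none of these was a mature B cell. There was 1 library per side, so no test across samples was possible, treatment and library cannot be told apart, and every interval given is a 95% interval that covers counting error only. Genes are called higher or lower where the fold of tenotomy over sham is at least 2 and its interval lies on 1 side of 1. Mature B cells were shallower in tenotomy although the library was deeper. Their median was 1816 UMIs and 835 genes in tenotomy, against 3511.5 UMIs and 1362 genes in sham, while endothelial cells had medians of 3879.5 and 3845 UMIs. Precursors showed the same order, with medians of 1964 UMIs in tenotomy and 3998 in sham.

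Mature B cells were 0.650% (0.510 to 0.816) of kept cells in tenotomy and 0.439% (0.304 to 0.613) in sham. The ratio of these shares was 1.48, and its interval of 0.985 to 2.22 included 1, so a difference was not detectable at these cell numbers. Since shallow cells pass a rule on UMIs less easily, the rule was also applied after every cell had been thinned to 1000 UMIs. It then found 42 tenotomy and 10 sham members, a ratio of 2.92 (1.47 to 5.82). Among members with no precursor UMI at all the ratio was 1.93 (1.18 to 3.18). Precursors of the B lineage, with at least 3 Cd79 UMIs and at least 2 UMIs of the precursor genes, were 1.33% (1.12 to 1.56) in tenotomy and 0.284% (0.178 to 0.430) in sham, a ratio of 4.66 (2.98 to 7.29). Mature cells therefore made up 32.9% (26.7 to 39.5) of mature and precursor cells together in tenotomy, against 60.7% (46.8 to 73.5) in sham, a ratio of 0.542 (0.408 to 0.718). T and natural killer lymphocytes, with at least 3 UMIs of their own genes, had a ratio of 3.70 (2.45 to 5.57).

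**Figure D1:**
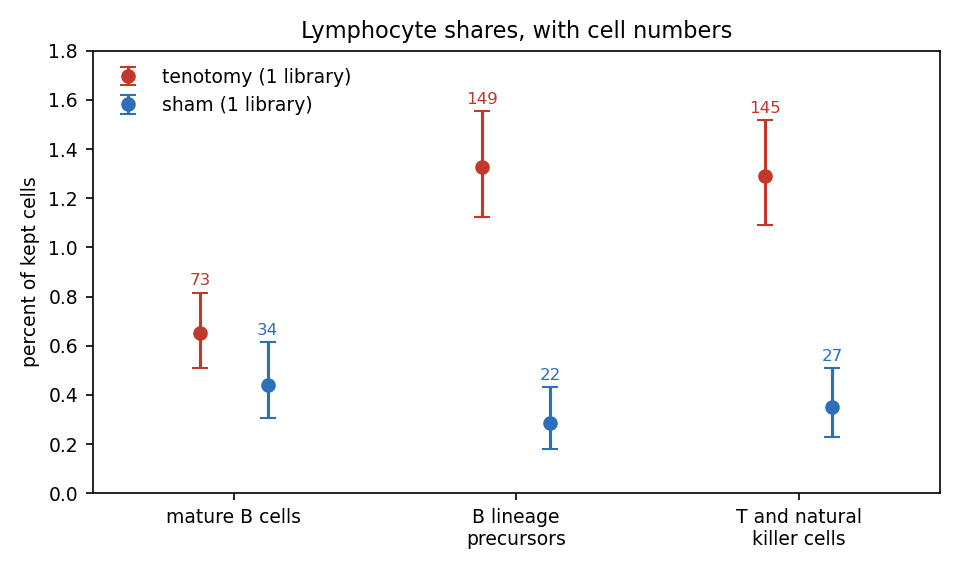
Percent of kept cells (vertical axis) that were mature B cells, B lineage precursors, and T and natural killer cells, tenotomy left of sham, with exact binomial 95% intervals and the number of cells above each. The mature B cell intervals overlap, while those of the precursors and of the T and natural killer cells do not.

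The denominator matters for these shares. Cells with 3 or more macrophage UMIs were 44.7% of kept cells in tenotomy and 7.62% in sham. Among cells without them, mature B cells were 1.17% (0.922 to 1.47) in tenotomy and 0.476% (0.330 to 0.664) in sham, a ratio of 2.47 (1.65 to 3.70). Among cells with a UMI of Ptprc, the common leukocyte antigen CD45, they were 0.775% (0.564 to 1.04) in tenotomy and 4.55% (2.84 to 6.86) in sham, a ratio of 0.171 (0.102 to 0.284). Of the mature B cells, 44 of 73 in tenotomy and 21 of 34 in sham had such a UMI.

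The edges of the rule were checked cell by cell. Of the members, 7 in tenotomy and 1 in sham stood at exactly 3 UMIs of the Cd79 genes, and 15 and 3 at exactly 2 of Ms4a1, Ighd and Fcmr. Just outside, 12 tenotomy barcodes and 1 sham barcode missed only by having 1 maturity UMI, and 4 tenotomy barcodes and 0 sham barcodes only by having 2 Cd79 UMIs. The precursor limit alone left out 35 tenotomy and 7 sham barcodes that passed every other step, and the macrophage limit alone left out 9 tenotomy and 0 sham barcodes. A single precursor UMI was present in 14 of 73 tenotomy members and 13 of 34 sham members.

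The genes of the rule are given as a description, since they chose the cells. Cd79a ran from 0 through a median of 4 to 17 UMIs per tenotomy member, and from 2 through 10 to 23 per sham member. Ms4a1, which encodes CD20, ran from 0 through 2 to 9 UMIs in tenotomy and from 0 through 2 to 10 in sham. Ighd, the constant region of IgD, had a UMI in 55 of 73 tenotomy members and 26 of 34 sham members. Fcmr, the receptor for secreted IgM, had one in 48 of 73 and 25 of 34. Ighd stood at 456 CPM in tenotomy and 417 CPM in sham, and Fcmr at 494 CPM and 471 CPM.

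Markers that the rule did not use were those of B cells. Ighm, the IgM heavy chain, had a UMI in 72 of 73 tenotomy members and 34 of 34 sham members. After thinning to 1000 UMIs the shares were 90.4% and 91.2%, against 0.632% and 0.310% of endothelial cells, which should lack it. Cd37, a B cell tetraspanin, had a UMI in 54 of 73 tenotomy and 31 of 34 sham members, and Ly6d, a surface protein kept from the earliest B cell stages, in 65 and 28. The thinned Ly6d shares were 75.3% (63.9 to 84.7) in tenotomy and 38.2% (22.2 to 56.4) in sham, while its summed level was 1021 CPM in both. Per cell, the median was 12.3 UMIs per 10000 in tenotomy and 6.72 in sham, and 14.0 and 12.0 without the barcodes, 9 in tenotomy and 5 in sham, that also carried many transcripts of other cells (mixed barcodes). Cd22, an inhibitory co-receptor, gave 9 UMIs in tenotomy and 10 in sham. The T and natural killer genes Cd3d, Cd3e, Cd3g, Trac and Nkg7 had 0 UMIs in all members of both libraries.

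No transcript of a switched heavy chain was read in the members. Ighg1, Ighg2b, Ighg2c, Ighg3, Igha and Ighe gave 0 UMIs in 73 tenotomy members and 0 in 34 sham members. The intervals allow a share of cells with such a UMI of up to 4.93% in tenotomy and up to 10.3% in sham. Among precursors, 4 of 149 in tenotomy and 2 of 22 in sham had such a UMI. These transcripts were rare in the whole libraries: Ighg2b had 4 UMIs in tenotomy and 2 in sham over all kept cells, and Igha 3 and 0. Jchain, the plasma cell gene that joins antibody units, had 8 and 7 UMIs over all kept cells and 0 in mature B cells of either library. A UMI of Jchain, Sdc1 or Prdm1 was read in 0% of tenotomy and 2.94% of sham members after thinning, against 2.59% and 2.17% of endothelial cells. Cr2, a complement receptor that is high on marginal zone B cells, had 2 UMIs in tenotomy members and 7 in sham members. Fcer2a, the low-affinity IgE receptor of follicular B cells, had 27 UMIs in 20 tenotomy cells and 16 UMIs in 10 sham cells. Its fold was 1.18 (0.612 to 2.34), so a difference was not detectable.

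Each B cell keeps 1 light chain type, kappa or lambda, and most mouse B cells use kappa. Igkc, the kappa constant gene, gave more UMIs than the lambda genes in 68 of 73 tenotomy members (93.2%, 84.7 to 97.7) and in 32 of 34 sham members (94.1%, 80.3 to 99.3). The lambda genes Iglc1, Iglc2 and Iglc3 led in 5 of 73 and 2 of 34 members. These 3 lambda constant genes were summed, and misassignment of reads among them was not tested. A level of 10 UMIs or more of both types was reached by 4 of 73 tenotomy and 5 of 34 sham members. A lambda UMI was read in 67.1% of tenotomy and 55.9% of sham members after thinning, while 0% of endothelial cells in either library had one at that depth. The part that free RNA, misassigned reads and cells with both chains had in this was not tested.

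**Figure D2:**
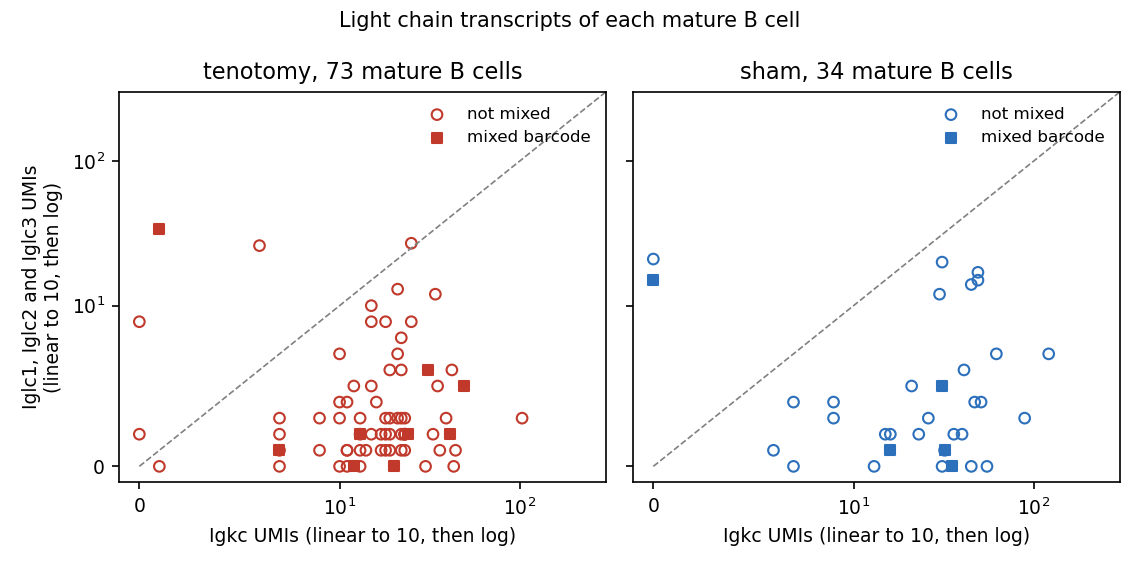
Kappa UMIs (horizontal) against lambda UMIs (vertical) of each mature B cell, tenotomy left and sham right, on axes that are linear to 10 and logarithmic beyond. Points are cells, filled squares are mixed barcodes, and the dashed line marks equal numbers; 5 of 73 tenotomy and 2 of 34 sham cells lie above it.

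Variable segments, which differ between B cell clones, were read in few cells, since the 3′ chemistry captures the other end of the transcript. Heavy chain segments had a UMI in 6 of 73 tenotomy members and 4 of 34 sham members. Those cells carried 6 and 4 different segments, and no heavy segment was seen in more than 1 cell of a library. Kappa segments were read in 4 and 4 members, again each in 1 cell. Iglv3 was seen in 3 tenotomy members, and Iglv1 in 1 sham member. No statement on clonal growth can be made from so few reads.

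Beside the precursors of the same library, mature B cells stood apart in MHC class II and in cycle genes, none of which the rule used. Cd74, the invariant chain of MHC class II, was at 10654 CPM in tenotomy members against 2066 CPM in tenotomy precursors, and at 11792 CPM in sham members against 1301 CPM in sham precursors. H2-Ab1, a class II beta chain, was at 3359 CPM against 626 CPM in tenotomy, and at 3101 CPM against 395 CPM in sham. Ccr7, the receptor that draws lymphocytes into lymph nodes, was at 485 CPM against 176 CPM in tenotomy and 399 CPM against 109 CPM in sham. Bank1, a B cell scaffold of receptor signalling, was at 241 CPM against 47.3 CPM in tenotomy and 254 CPM against 20.8 CPM in sham.

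Mki67, Dntt, Rag2 and Sox4 were lower in members than in precursors. Mki67, a marker of cycling cells, was at 8.44 CPM in tenotomy members against 759 CPM in precursors, and at 0 in sham members against 453 CPM. Dntt and Rag2, which act in receptor rearrangement, had 0 UMIs in all members. Sox4, a factor of immature lymphocytes, was at 177 CPM against 1058 CPM in tenotomy and 42.3 CPM against 723 CPM in sham. Cd24a, Il7r, Myb, Lef1, Bcl7a and Cplx2 were also lower in tenotomy members, at 215, 25.3, 21.1, 8.44, 8.44 and 0 CPM. In tenotomy precursors they stood at 1511, 473, 484, 110, 426 and 81.7 CPM. The same genes were lower in sham members than in sham precursors. In tenotomy Cd93 was slightly lower in members, and of the precursor genes looked at only Akap12 and Erg were higher. Cd93, a surface protein of immature B cells that endothelial cells also make, was at 228 CPM in tenotomy members against 267 CPM in precursors, and at 109 CPM against 187 CPM in sham. Akap12, a scaffold of protein kinase A, was at 439 CPM against 340 CPM in tenotomy and 72.5 CPM against 281 CPM in sham. Erg, an ETS factor of endothelial and blood progenitor cells, was at 21.1 CPM against 8.60 CPM in tenotomy and 42.3 CPM against 41.6 CPM in sham. Without the mixed barcodes, tenotomy members had 8.10, 32.4 and 0 CPM of Cd93, Akap12 and Erg, and sham members 9.10, 36.4 and 0 CPM. Over 12 cycle genes, 5.48% (1.51 to 13.4) of tenotomy members and 0% (0 to 10.3) of the 34 sham members had a UMI after thinning. Endothelial cells gave 7.53% and 1.55%, but they may make cycle genes themselves, so their shares do not give the level of free RNA.

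A part of the members carried transcripts of other cells. Barcodes with at least 7 UMIs over the defining genes of 1 other class (for example collagens, neutrophil granule genes or endothelial junction genes) are called mixed barcodes here, a limit set after the data had been seen. They were 9 of 73 members in tenotomy and 5 of 34 in sham, with medians of 10849 and 9757 UMIs. They held 47.9% of all member UMIs in tenotomy and 33.6% in sham. The deepest, in tenotomy, had 30470 UMIs with 459 of mesenchymal genes, and another tenotomy barcode had 371 UMIs of neutrophil genes. The doublet caller scrublet marked 2 of the 9 and 1 of the 5, and no other member. Whether a mixed barcode held several cells was not tested.

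**Figure D3:**
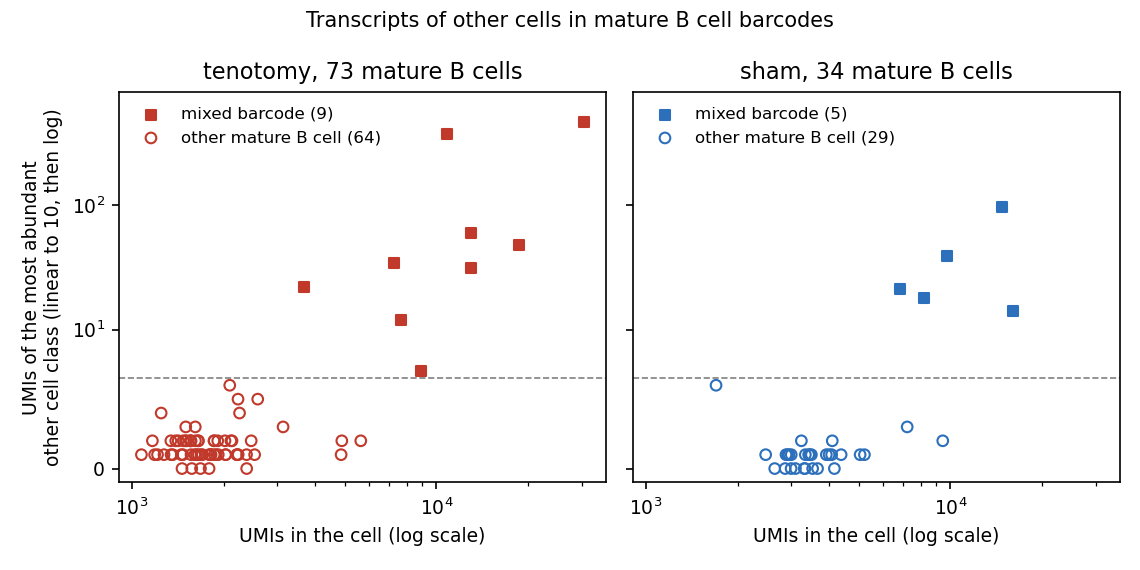
UMIs of each mature B cell (horizontal, log scale) against its UMIs from the most abundant other cell class (vertical, linear to 10 and log beyond), tenotomy left and sham right. Filled squares above the dashed line are the 9 tenotomy and 5 sham mixed barcodes, which lie among the deeper cells, and open circles are the other 64 and 29 members.

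A gene was measured if it had at least 25 UMIs over both libraries, at least 50 CPM on its higher side and at least 10% of its level over all kept cells. In the gene lists, chosen with earlier results of these data known, the 25 UMIs alone were asked. With all members, 209 genes were called higher in tenotomy (8.67% of 2411 measured) and 149 lower (6.18%). Several genes that ranked first on the higher side came mostly from 1 barcode: 137 of the 144 UMIs of S100a9, a neutrophil calcium-binding protein, and 206 of the 216 UMIs of Ccl4, a chemokine, came from 1 barcode each. Others were spread further, such as S100a4, a calcium-binding protein, with 39 of its 100 UMIs in 1 barcode, and the inflammatory cytokine Il1b, with 19 of 59. Ngp and Camp (neutrophil granules), Postn (stromal matrix) and Ccl22 (a chemokine of dendritic cells) likewise had 86 of 88, 67 of 68, 95 of 109 and 38 of 38 UMIs in 1 barcode. For 56 of the 209 genes, 1 tenotomy barcode carried 50% or more of the tenotomy UMIs. S100a9 was at least 33.5-fold higher in tenotomy, since it had no UMI in sham members and 3 UMIs over all of them were taken in place of 0.

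Without the mixed barcodes, 64 tenotomy and 29 sham cells with 123471 and 109865 UMIs remained. Then 44 genes were called higher in tenotomy (3.47% of 1268 measured) and 49 lower (3.86%), and 21 and 24 of these were called the same way with all members. The values that follow are without mixed barcodes unless another set of cells is named. The median log2 fold of the measured genes was -0.05, and 0.01 with all members.

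Among B cell transcription factors and surface receptors, 6 of 23 measured genes of a fixed list were higher in tenotomy and none lower, beside 3.47% of all measured genes. The rule asked for fixed UMI counts of B cell genes, and tenotomy cells were shallower, with a median of 1694.5 UMIs against 3424. On these cells Ms4a1, Ighd, Fcmr and Cd79b of the rule stood at 1118, 778, 850 and 1644 CPM in tenotomy. In sham they stood at 719, 510, 619 and 1083 CPM. Cd79a was at 2624 CPM in tenotomy and 2813 CPM in sham. The part of the selection in the calls of this list was not tested. Pou2f2 encodes Oct-2, a factor that binds the octamer of immunoglobulin promoters, and lies at chr7:25087344-25179726 on the minus strand (mm10, GENCODE vM21). It gave 37 UMIs in 20 of 64 tenotomy cells and 6 UMIs in 6 of 29 sham cells, a fold of 5.49 (2.30 to 15.9). No sham cell had more than 1 Pou2f2 UMI, while the highest tenotomy cell had 6. With all members the fold was 4.49 (2.01 to 11.8). After thinning, 19.2% (10.9 to 30.1) of tenotomy members and 5.88% (0.720 to 19.7) of sham members had a Pou2f2 UMI, with overlapping intervals. Endothelial cells had one in 0.805% and 0.141%.

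Pax5, the factor that commits cells to the B lineage (chr4:44524757-44710487, minus strand), had 37 UMIs in 21 of 64 tenotomy cells and 14 UMIs in 8 of 29 sham cells, a fold of 2.35 (1.24 to 4.71). Its thinned shares were 15.1% (7.77 to 25.4) and 11.8% (3.30 to 27.5), with overlapping intervals, and 0 of 1740 tenotomy and 0 of 3554 sham endothelial cells had it. Siglecg, an inhibitory receptor of B cells, had 20 UMIs in tenotomy and 7 in sham, a fold of 2.54 (1.03 to 7.12). Spib, Bcl11a and Irf8, all factors of B cell development, were 2.08-fold (1.02 to 4.48), 2.19-fold (1.12 to 4.55) and 2.37-fold (1.19 to 5.06) higher. With all members these 3 were at 1.61, 1.48 and 1.94 and were not called. Among the rest of the list, Ebf1 was at 1.15 (0.918 to 1.43), Bank1 at 1.17 (0.737 to 1.87) and Bach2, a factor that holds back plasma cell fate, at 1.10 (0.552 to 2.22).

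Further genes called higher on both sets of cells were spread over many cells. Irf2, an interferon regulatory factor, had 37 UMIs in 26 of 64 tenotomy cells and 10 UMIs in 7 of 29 sham cells, a fold of 3.29 (1.61 to 7.42). Irf2bp2, which encodes a binding partner of Irf2, was at 3.43 (1.46 to 9.34), Scand1 at 2.91 (1.45 to 6.34) and Ripor2 at 3.71 (1.48 to 11.1). The thinned Irf2 shares, 17.8% (9.84 to 28.5) and 11.8% (3.30 to 27.5), did not differ beyond counting error, and endothelial cells had 8.68% and 13.7%. Lcp1, an actin bundling protein of leukocytes, had 56 UMIs in 33 tenotomy cells and 24 UMIs in 17 sham cells, a fold of 2.08 (1.27 to 3.50). None of the 44 genes had 50% or more of its tenotomy UMIs in 1 barcode.

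**Figure D4:**
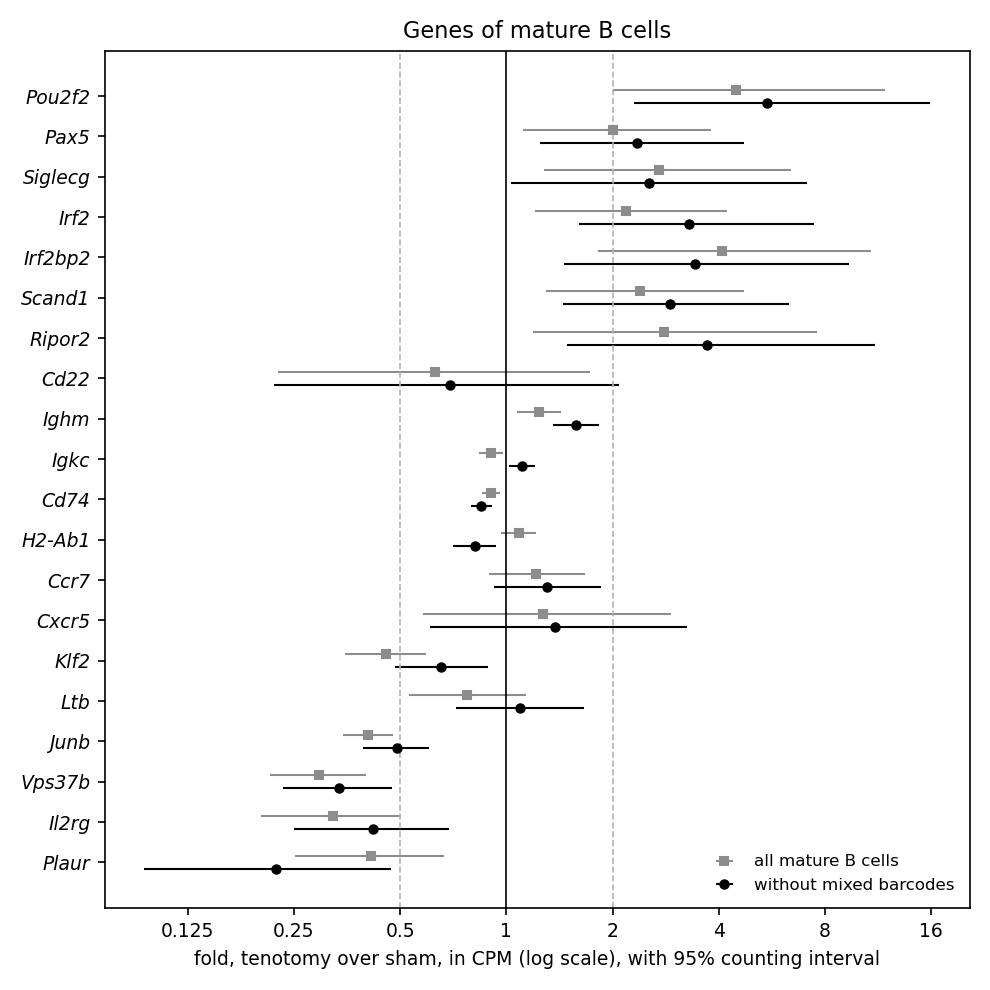
Fold of tenotomy over sham (horizontal, log scale, with 95% counting intervals) for 20 genes, with all mature B cells (grey squares) and without mixed barcodes (black circles). Dashed lines mark 2-fold, and Pou2f2 lies highest at 5.49 without mixed barcodes. Ighm (1.58 without mixed barcodes), Igkc, Cd74 and H2-Ab1 lie between the dashed lines. Junb, Vps37b, Il2rg and Plaur lie to the left of 1 on both sets.

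For 4 genes or gene pairs of macrophages, neutrophils and stromal cells, shares of members are set beside those of endothelial cells, and the part of free RNA in them was not tested. Lyz2, the lysozyme of macrophages, was 9.08-fold (3.65 to 29.1) higher, with 51 UMIs in 33 of 64 tenotomy cells and 5 UMIs in 5 of 29 sham cells. After thinning, 31.5% of tenotomy members and 8.82% of sham members had a Lyz2 UMI, against 28.9% of tenotomy and 4.87% of sham endothelial cells, which lie inside the counting intervals of the members (21.1 to 43.4 and 1.86 to 23.7). S100a8 or S100a9 had a UMI in 6.85% and 2.94% of members after thinning, against 10.2% and 2.62% of endothelial cells. Wfdc17, another myeloid gene, was 4.45-fold (1.82 to 13.1) higher, in 21.9% and 5.88% of members and 14.9% and 1.27% of endothelial cells. Gsn, which encodes the actin-severing protein gelsolin and is abundant in stromal cells, was called lower with all members. Without mixed barcodes it had 1 UMI in tenotomy and 81 UMIs in 19 of 29 sham cells, 54 of them in 1 cell. It also stood under 10% of its level over all kept cells. Its thinned shares were 1 of 73 tenotomy and 9 of 34 sham members, against 114 of 1740 and 854 of 3554 endothelial cells.

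The genes called lower on both sets of cells included an AP-1 subunit, a membrane sorting gene and receptors. Junb, a subunit of the AP-1 factor that is switched on within minutes of many stimuli (chr8:84974484-84978718, minus strand), had 134 UMIs in 44 of 64 tenotomy cells and 244 UMIs in 27 of 29 sham cells. Per cell it ran from 0 through a median of 6.14 to 57.5 UMIs per 10000 in tenotomy, and from 0 through 20.1 to 65.1 in sham. The ranges overlapped widely and the sham median lay higher. The fold was 0.489 (0.393 to 0.606), or 2.05 times lower in tenotomy, and with all members 0.406 (0.344 to 0.479). After thinning, 53.4% (41.4 to 65.2) of tenotomy and 79.4% (62.1 to 91.3) of sham members had a Junb UMI. Endothelial cells moved the same way, at 69.0% and 86.7%, and the part of a change common to the libraries in this was not tested.

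Vps37b, a subunit of the ESCRT-I complex that sorts membrane proteins for breakdown (chr5:124004641-124032270, minus strand), had 46 UMIs in 26 of 64 tenotomy cells and 122 UMIs in 26 of 29 sham cells. The median tenotomy cell had 0 UMIs and the median sham cell 4, and no sham cell had more than 12. The fold was 0.336 (0.234 to 0.475), or 2.98 times lower. Unlike Junb, it had near shares in endothelial cells, at 3.79% (2.95 to 4.80) in tenotomy and 3.18% (2.63 to 3.81) in sham, while thinned shares of members were 27.4% (17.6 to 39.1) in tenotomy and 58.8% (40.7 to 75.4) in sham.

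Il2rg, the common gamma chain shared by several interleukin receptors (chrX:101264378-101268255, minus strand), had 25 UMIs in 22 of 64 tenotomy cells and 53 UMIs in 24 of 29 sham cells, and was 2.38 times lower (1.45 to 4.00). Its thinned shares were 21.9% (13.1 to 33.1) and 23.5% (10.7 to 41.2) and did not differ beyond counting error. Plaur, the urokinase receptor, had 9 UMIs in 6 tenotomy cells and 36 UMIs in 18 sham cells, 4.50 times lower (2.12 to 10.6). Its thinned shares of members were 8.22% (3.08 to 17.0) in tenotomy and 17.6% (6.76 to 34.5) in sham, with overlapping intervals. Endothelial cells had it in 19.4% in tenotomy, more than the members there, and in 11.9% in sham. Nfkb1, a subunit of NF-kB, was 2.71 times lower (1.62 to 4.67), but 26 of its 53 sham UMIs came from 1 cell, against 22 UMIs in all tenotomy cells, and it was not called with all members (1.62 times lower). P2ry10, a lysophospholipid receptor of lymphocytes, was 2.25 times lower (1.17 to 4.50).

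**Figure D5:**
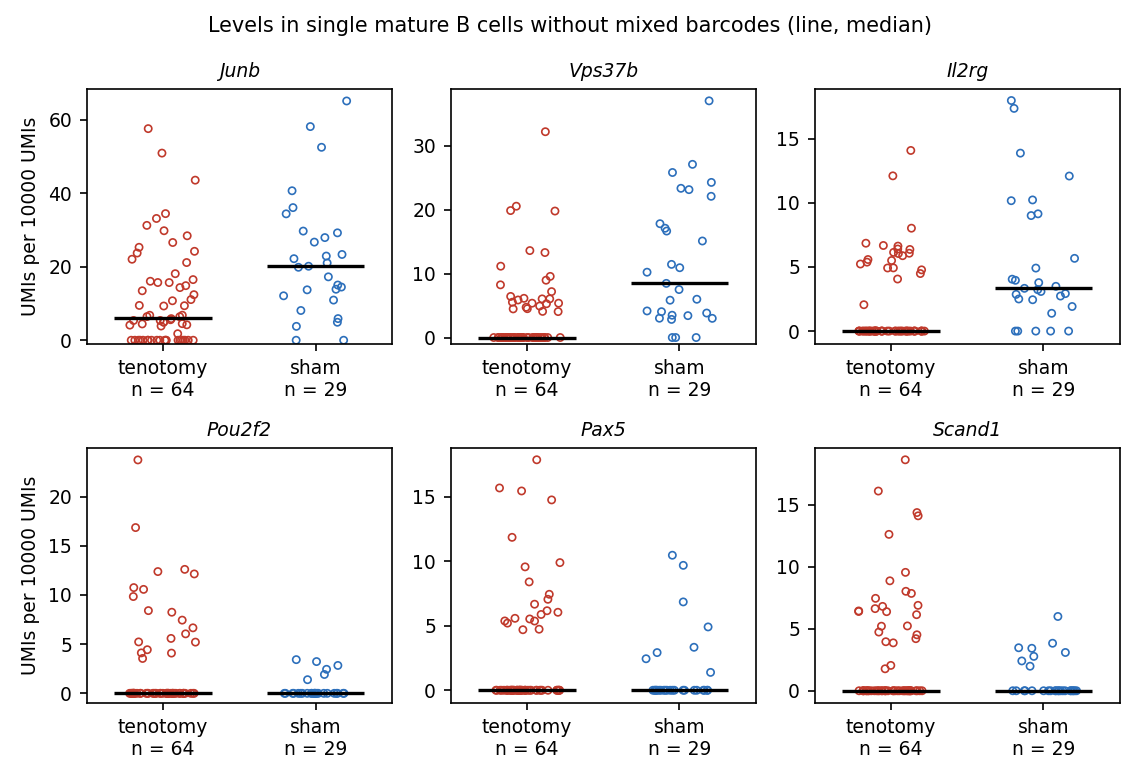
UMIs per 10000 UMIs of each mature B cell without mixed barcodes, 64 in tenotomy (left of each panel) and 29 in sham, for 6 genes; lines are medians. Junb, Vps37b and Il2rg have higher sham medians with overlapping cells, and Pou2f2, Pax5 and Scand1 have a median of 0 on both sides with more and higher tenotomy cells above 0; because tenotomy cells are shallower, a single UMI stands higher there.

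Of the 4 genes that ranked first on the lower side, 1 sham cell gave most of the sham UMIs of Mt2, Id3 and Cxcl1 and 23 of the 44 of Mt1. Mt2, a metallothionein that binds zinc and copper, had 2 UMIs in tenotomy and 35 in sham, of which 27 came from 1 cell, and Mt1 had 10 and 44. Id3, an inhibitor of basic helix-loop-helix factors, had 18 UMIs in 13 tenotomy cells and 80 UMIs in 8 sham cells, 65 of them in 1. Cxcl1, a neutrophil-attracting chemokine, had 6 and 103 UMIs, with 98 of the sham UMIs in 1 cell, and all 47 sham UMIs of the related Cxcl2 were in 1 cell, while with all members Cxcl2 was 3.29-fold (2.42 to 4.54) higher in tenotomy, 185 of 240 UMIs in 1 barcode. In all, 6 of the 49 lower genes had 50% or more of their sham UMIs in 1 barcode.

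Immediate early and heat shock genes changed with the set of cells. With all members, 8 of 21 were lower in tenotomy and none higher, beside 6.18% of all measured genes. Fos was at 118 CPM in tenotomy and 532 CPM in sham, and Egr1 at 59.1 and 623 CPM. Without mixed barcodes, 16 were measured, with 1 lower (Junb) and 3 higher, beside 3.86% lower and 3.47% higher of all measured genes. Fos then had 11 UMIs in tenotomy and 9 in sham, a fold of 1.09 (0.410 to 2.97). Jun, with 64 UMIs in 14 of 64 tenotomy cells and 4 UMIs in 4 of 29 sham cells, was 14.2-fold (5.30 to 53.8) higher, and with all members it was at 0.563. Hspa1a, a heat shock chaperone, was 4.23-fold (2.99 to 6.10) higher, with 190 UMIs in 16 cells and 40 UMIs in 8 cells. Jun was read in 19.2% of tenotomy and 5.88% of sham members after thinning, against 52.4% and 81.0% of endothelial cells. Hspa1a was read in 21.9% and 26.5% of members, against 59.3% and 81.8% of endothelial cells.

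Few genes of antigen presentation were called. Of 11 measured MHC class II genes, 1 was higher and none lower, beside 3.47% and 3.86% of all measured genes. Cd74 ran from 2 through 22 to 57 UMIs per tenotomy cell and from 17 through 56 to 88 per sham cell. It was at 12683 CPM in tenotomy and 14918 CPM in sham, a fold of 0.850 (0.793 to 0.912). H2-Ab1 was at 0.814 (0.707 to 0.937), and with all members at 1.08 (0.968 to 1.21), on the other side of 1. Ifi30, a lysosomal thiol reductase that prepares antigens, was the gene called, at 2.67 (1.49 to 5.04), and it is also made by macrophages. None of 6 measured MHC class I genes was called in either direction.

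Levels of immunoglobulin genes lay within 2-fold for both main chains. Ighm was at 3888 CPM in tenotomy and 2467 CPM in sham, a fold of 1.58 (1.36 to 1.84), and 1.24 (1.07 to 1.43) with all members. Igkc was at 10124 and 9157 CPM, a fold of 1.11 (1.02 to 1.20), but with all members it lay on the other side of 1, at 0.903 (0.834 to 0.977). Of 5 measured constant genes, Iglc1 was called higher at 2.08-fold, which is uncertain because of its near-identical copies. Among the receptors that guide lymphocytes, 1 of 8 measured genes (P2ry10) was lower and none higher, beside 3.86% lower and 3.47% higher of all measured genes. Ccr7 was at 1.30 (0.923 to 1.85), Cxcr5, the receptor for entry into B cell follicles, at 1.38 (0.608 to 3.25), and Cxcr4, which holds cells in bone marrow, at 1.73 (0.971 to 3.19). Klf2, a factor that maintains S1pr1, was at 0.655 (0.482 to 0.885), and with all members at 0.456 (0.349 to 0.594), where it was called lower. S1pr1, the receptor for exit from lymphoid organs, had 10 UMIs in tenotomy and 7 in sham, under the 25 needed.

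For the activation markers Cd69, Cd83 and Cd86 a difference was not detectable. A UMI of Cd69, Cd83 or Cd86 was present in 36 of 73 tenotomy members (49.3%, 37.4 to 61.3) and 17 of 34 sham members (interval 32.4 to 67.6%) after thinning, against 4.43% and 1.07% of endothelial cells. Unthinned, the shares were 71.2% and 82.4%. Cd69, an early activation antigen, was at 0.958-fold (0.605 to 1.52), Cd83 at 1.47-fold (0.910 to 2.42) and Cd86, a ligand for T cell co-stimulation, at 0.774-fold (0.403 to 1.47). Among 11 measured activation genes, Nr4a1, Egr1 and Nfkb1 were lower and none was higher, beside 3.86% lower and 3.47% higher of all measured genes. Of these 3, Egr1 stood under 10% of its level over all kept cells, and Nfkb1 had 26 of its 53 sham UMIs in 1 cell. Nr4a1, which follows signalling of the antigen receptor, had 28 UMIs in 18 of 64 tenotomy cells and 53 UMIs in 18 of 29 sham cells, a fold of 0.470 (0.286 to 0.757), and 0.558 (0.374 to 0.830) with all members, where it was not called. Ltb, a membrane lymphotoxin subunit, was at 1.09 (0.720 to 1.66), and Tnfrsf13c, the receptor for the survival factor BAFF, at 1.53 (0.758 to 3.19).

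None of 21 ribosomal protein genes, 10 mitochondrially encoded genes, 14 nuclear oxidative phosphorylation genes and 7 glycolytic genes was called, beside 3.47% higher and 3.86% lower of all measured genes. With all members 5 of 9 glycolytic genes were higher, beside 8.67% of all measured genes. In tenotomy, 1 barcode held 81 of the 218 UMIs of Gapdh, 68 of 128 of Pkm, 40 of 95 of Ldha, 26 of 45 of Pgk1 and 20 of 34 of Tpi1. The most abundant transcripts were shared by both sides. Malat1, a nuclear noncoding RNA, was at 24524 CPM in tenotomy and 25750 CPM in sham, and Tmsb4x, which encodes the actin-binding thymosin beta 4, at 12084 and 12251 CPM.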

How the data were processed

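The authors deposited UMI counts per gene and cell barcode for 2 libraries of 10x Genomics 3′ v3.1 chemistry, per the labels. Per the submitters' processing notes, Cell Ranger 4.0.0 and mm10 were used, with 32285 gene IDs in the tables and no barcode under 500 UMIs. Barcodes with at least 300 genes and at most 10% mitochondrial UMIs were kept, which left out 190 tenotomy and 136 sham barcodes for genes and 697 and 715 for mitochondrial UMIs. Raw counts of members were summed per library and given as CPM of all UMIs in the summed cells. A fold of tenotomy over sham has an exact conditional binomial interval, a share an exact Clopper-Pearson interval, and a ratio of shares a log-scale interval, all at 95%. PCR copies are collapsed by UMIs, but cells of 1 pool are not replicates, so no p-value was computed.

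A gene was called at a fold of 2 or more in either direction with the interval on 1 side of 1, and the 12 genes of the selection rule were left out of the counts. Genes at 0 were set to 3 UMIs. For shares of cells with a transcript, each cell was thinned to 1000 UMIs. Endothelial cells, with at least 3 UMIs of Pecam1, Cdh5 and Cldn5 together and fewer than 3 of the Cd79 genes, served as comparison cells that should lack B cell transcripts. Genes named in the text were up to 15 called genes in each direction ranked by the interval bound nearest to 1, up to 4 called genes of each list, and a fixed set of B cell genes. Other genes were named after their values were seen. The members and lists were chosen with earlier results of these data known, and the limit of 7 UMIs for mixed barcodes after the data were seen.

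Doublets were not removed in the values given first. Scrublet in scanpy 1.11.5 set a threshold of 0.212 in tenotomy and 0.598 in sham, where it marked 1 cell and thus had not worked. At 0.212 in both, 320 tenotomy and 190 sham cells were marked (2.85% and 2.46%). Python 3.11.15, numpy 2.4.6, scipy 1.17.1 and pandas 2.3.3 were used. The calls were tried on counts simulated from the pooled member profile without spread between cells, so they say nothing on genes carried by 1 barcode. There, 20 of 44 genes set 2-fold lower and 21 of 50 set 2-fold higher were called. At 4-fold these were 44 of 58 and 48 of 48, and 1.85% of unchanged genes were called. Promoter sequence came from RefSeq and gene positions from GENCODE vM21.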

Additional observations from a re-analysis of the deposited data

How the results depend on the processing

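With 1 library per side, no replicate could be left out. No paired analysis was possible because each side was 1 pool with no replicate number. The ratio of mature B cell shares was 1.48, and it moved to 2.92 with the rule on thinned cells, 2.47 among cells other than macrophages and 0.171 among Ptprc cells. The precursor ratio moved to 7.79 and, on the other side of 1, to 0.496 with the same last 2 denominators. For members with no precursor UMI the mature B cell ratio was 1.93 (1.18 to 3.18), an interval above 1. Under the other limits (genes, mitochondrial UMIs, doublets, rule genes, mixed barcodes) the mature B cell ratio ran from 1.13 to 1.52, with intervals that included 1.

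The 209 higher and 149 lower genes became 44 and 49 without mixed barcodes, 11 and 20 with cells free of other-cell defining UMIs, 7 and 21 with thinned cells, 330 and 231 with a minimum of 10 UMIs, and 101 and 62 with a minimum of 50. Pou2f2 ran from 1.66 to 2.66, Junb from -1.34 to -0.73 and Vps37b from -1.77 to -1.33 on the log2 scale over all settings.

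Some genes took the opposite sign on the log2 scale from the one with all members. Without mixed barcodes Cxcl2 stood at -1.40, Akap12 at -0.17, Pgk1 at -0.36, Vim at -0.71, Myc at 0.095, Fos at 0.12 and Fosb at 0.57. With thinned cells Postn stood at -0.37, Il1b at -0.37, Ngp at -0.10, Uqcrq at -0.62, Sdhd at -0.37, Pkm at -0.10, Gapdh at -0.0093, Sec61b at -0.45, Cldn5 at -2.10 and Myc at 0.90. In cells free of other-cell defining UMIs Id3 stood at 0.027, Klf2 at 0.11, Gpr183 at -0.13, Traf1 at -0.13, Uqcrq at -0.13, Sdhd at -0.80, Vim at -0.32, Myc at 2.20 and Fosb at 2.20. Cxcl2 stood at -1.14 with doublets removed and -1.75 with no precursor UMI. As a mean over cells Myc stood at 0.037 and Pgk1 at -0.046. The cause was not tested.

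Without thinning, tenotomy and sham shares were 87.7% and 82.4% for lambda, 71.2% and 82.4% for activation genes; tenotomy was 15.1% for cycle and 17.8% for neutrophil genes. At 2 or more UMIs, tenotomy was 37.0% for lambda, 20.5% for activation, 0% for cycle and 1.37% for neutrophil genes, and sham was 29.4% for activation and 0% for plasma cell and neutrophil genes. Members too shallow for a gene give no statement that it is absent.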
